A study of Mus musculus with 2 samples.

Results

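Accessible regions around 6 transcription factor genes of the rod lineage were examined in control and Ngn3-OE late retinal progenitor cells (RPCs). The genes were Nrl, Nr2e3, Rorb, Prdm1, Mef2d and Esrrb. A region was taken where the summit of an ATAC-seq peak lay inside the gene or within 50 kb of either end of it, on the mm10 build and the GENCODE annotation. This gave 135 of the 117165 peaks of the control library and 142 of the 124935 peaks of the Ngn3-OE library. ATAC-seq maps open chromatin: the Tn5 transposase inserts into DNA that is not wrapped in nucleosomes, and reads pile up there. Mouse pups received a control plasmid or an Ngn3-overexpressing plasmid in the retina by in vivo electroporation at postnatal day 1, and GFP-labelled cells were sorted at day 2 after electroporation (DAE 2). Both groups therefore went through electroporation and sorting, and differed in the plasmid. Each group had 1 library, made from 50000 sorted cells, and neither the promoter of the plasmid nor the strain and the number of pups is given in the sources used here. With 1 library a group there was no replicate check and no test of the condition: the intervals of tags and of ratios below cover counting error only, and tags of a peak may come from both ends of 1 fragment. The intervals of shares and medians treat peaks as independent, which neighbouring peaks are not.

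Rods arise from late RPCs after the cells leave the cell cycle. Rorb, a nuclear receptor, acts early in this path and is needed for normal Nrl expression. Prdm1 (Blimp1) is a zinc finger repressor that keeps young photoreceptors from becoming bipolar cells. Nrl, a basic leucine zipper factor of the Maf family, specifies rods over cones, and its target Nr2e3, an orphan nuclear receptor, represses cone genes in rods. Mef2d is a MADS box factor that works with Crx at photoreceptor enhancers, and Esrrb is an orphan nuclear receptor that supports gene expression in rods. Accessibility at these genes is a measure of their regulatory DNA and not of their RNA, which was not analysed here.

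The sequences below are a selection from the open regions compared, chosen as stated for each set. They are on the plus strand of mm10 in the 5′ to 3′ direction, in lower case with matches to the searched motifs in capitals. The first 5 come from the peaks that had at least 1.5 times the control pileup in Ngn3-OE and held CATCTG or its reverse complement CAGATG, the core of the E-box that neurogenin-type basic helix-loop-helix factors recognise. For Rorb and Mef2d the 201 bp around the control summit are given: chr19:19004342-19004542 and chr19:19005213-19005413 in a Rorb intron and chr3:88145498-88145698 in a Mef2d intron. For Nrl the 30 bases around the core are given, chr14:55524254-55524283 near the internal start site and chr14:55519011-55519040 in the last exon.
Nrl internal start: gttccctgagatCATCTGtggtcctcgagc
Nrl last exon: ccccttagaggaCAGATGacagtagctgat
Rorb intron, nearer: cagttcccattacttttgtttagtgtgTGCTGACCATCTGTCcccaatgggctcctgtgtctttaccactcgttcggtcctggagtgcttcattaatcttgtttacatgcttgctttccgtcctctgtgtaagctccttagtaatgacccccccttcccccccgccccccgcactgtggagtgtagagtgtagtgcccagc
Rorb intron, farther: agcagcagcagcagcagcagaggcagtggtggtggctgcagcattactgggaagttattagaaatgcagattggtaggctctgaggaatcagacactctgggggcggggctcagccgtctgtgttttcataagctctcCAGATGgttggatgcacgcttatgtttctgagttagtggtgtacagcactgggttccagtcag
Mef2d intron: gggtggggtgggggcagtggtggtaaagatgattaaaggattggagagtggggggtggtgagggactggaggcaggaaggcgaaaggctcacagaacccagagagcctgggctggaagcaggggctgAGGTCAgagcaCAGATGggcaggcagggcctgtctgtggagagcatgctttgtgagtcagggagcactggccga
In the Mef2d window the nuclear receptor half-site AGGTCA stands just before the E-box. In the nearer Rorb window the single run in capitals joins the NRL half-site TGCTGA to the longer E-box, and the 2 matches overlap.

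The remaining windows show the pairs at Nr2e3 and Prdm1 with the highest ratios among those with at least 20 tags on average. They are chr9:59951102-59951302, 1.085 kb upstream of the annotated start site of Nr2e3, chr9:59959409-59959609, 9.392 kb upstream of it, and chr10:44496141-44496341, 37.493 kb upstream of the outermost start site of Prdm1. The only capitals are the reverse complement of AGGTCA in the second window and of the SOX-type CCATTGT in the last, and none of these windows holds CATCTG. Other pairs with at least 20 tags on average and a ratio of at least 1.5 lie at Rorb, Mef2d and Prdm1 and are not printed. They had ratios of 2.19, 2.15 and 1.65 and held no CATCTG within 100 bp of the summit.
Nr2e3 near: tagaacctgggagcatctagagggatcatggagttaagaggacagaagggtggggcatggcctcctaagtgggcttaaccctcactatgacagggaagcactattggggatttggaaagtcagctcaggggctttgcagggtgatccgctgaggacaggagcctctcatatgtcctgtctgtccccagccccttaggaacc
Nr2e3 middle: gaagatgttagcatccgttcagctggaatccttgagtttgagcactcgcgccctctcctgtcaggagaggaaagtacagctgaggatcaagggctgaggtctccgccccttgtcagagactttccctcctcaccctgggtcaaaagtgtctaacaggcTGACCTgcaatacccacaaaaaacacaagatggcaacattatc
Prdm1 far: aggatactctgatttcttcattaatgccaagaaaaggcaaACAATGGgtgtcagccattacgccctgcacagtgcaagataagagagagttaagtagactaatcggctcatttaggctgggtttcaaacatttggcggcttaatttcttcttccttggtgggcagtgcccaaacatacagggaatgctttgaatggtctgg

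To ask whether open regions at the rod genes were gained or lost, peaks were first compared by overlap. Of the control peaks, 109 of 135 overlapped an Ngn3-OE peak (80.7%, 95% Wilson interval 73.3 to 86.5), and of the Ngn3-OE peaks, 108 of 142 overlapped a control peak (76.1%, 68.4 to 82.3). Peaks found in control alone were 26, or 19.3%, against 21.7% of all control peaks. Those found in Ngn3-OE alone were 34, or 23.9%, against 26.6% of all Ngn3-OE peaks. Both shares lay near those of the whole lists. One-library peaks were weak: they rested on a median of 6 tags at the summit in both libraries, with 3 to 16 tags in control and 3 to 14 in Ngn3-OE, and only 7 and 9 of them reached a −log10 q of 5.

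The direction of the one-library counts differed from gene to gene. At Esrrb, 1 of 16 control peaks was control-only and 8 of 23 Ngn3-OE peaks were Ngn3-OE-only. Nr2e3 had 1 of 10 and 6 of 15, and Nrl had 1 of 21 and 4 of 22. Rorb went the other way, with 14 of 34 control-only and 7 of 27 Ngn3-OE-only. Prdm1 had 4 of 25 and 4 of 26, and Mef2d 5 of 29 in both libraries. Over all peaks of the 2 lists the shares were 21.7% and 26.6%. By place, 1 control-only and 11 Ngn3-OE-only peaks lay upstream of the genes beside 27 shared ones, 10 and 8 lay downstream beside 28 shared ones, and 15 of each lay inside the gene records. The same split was not computed for other genes. Whether these counts exceed the spread between preparations cannot be known from 1 library a group.

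**Figure D1:**
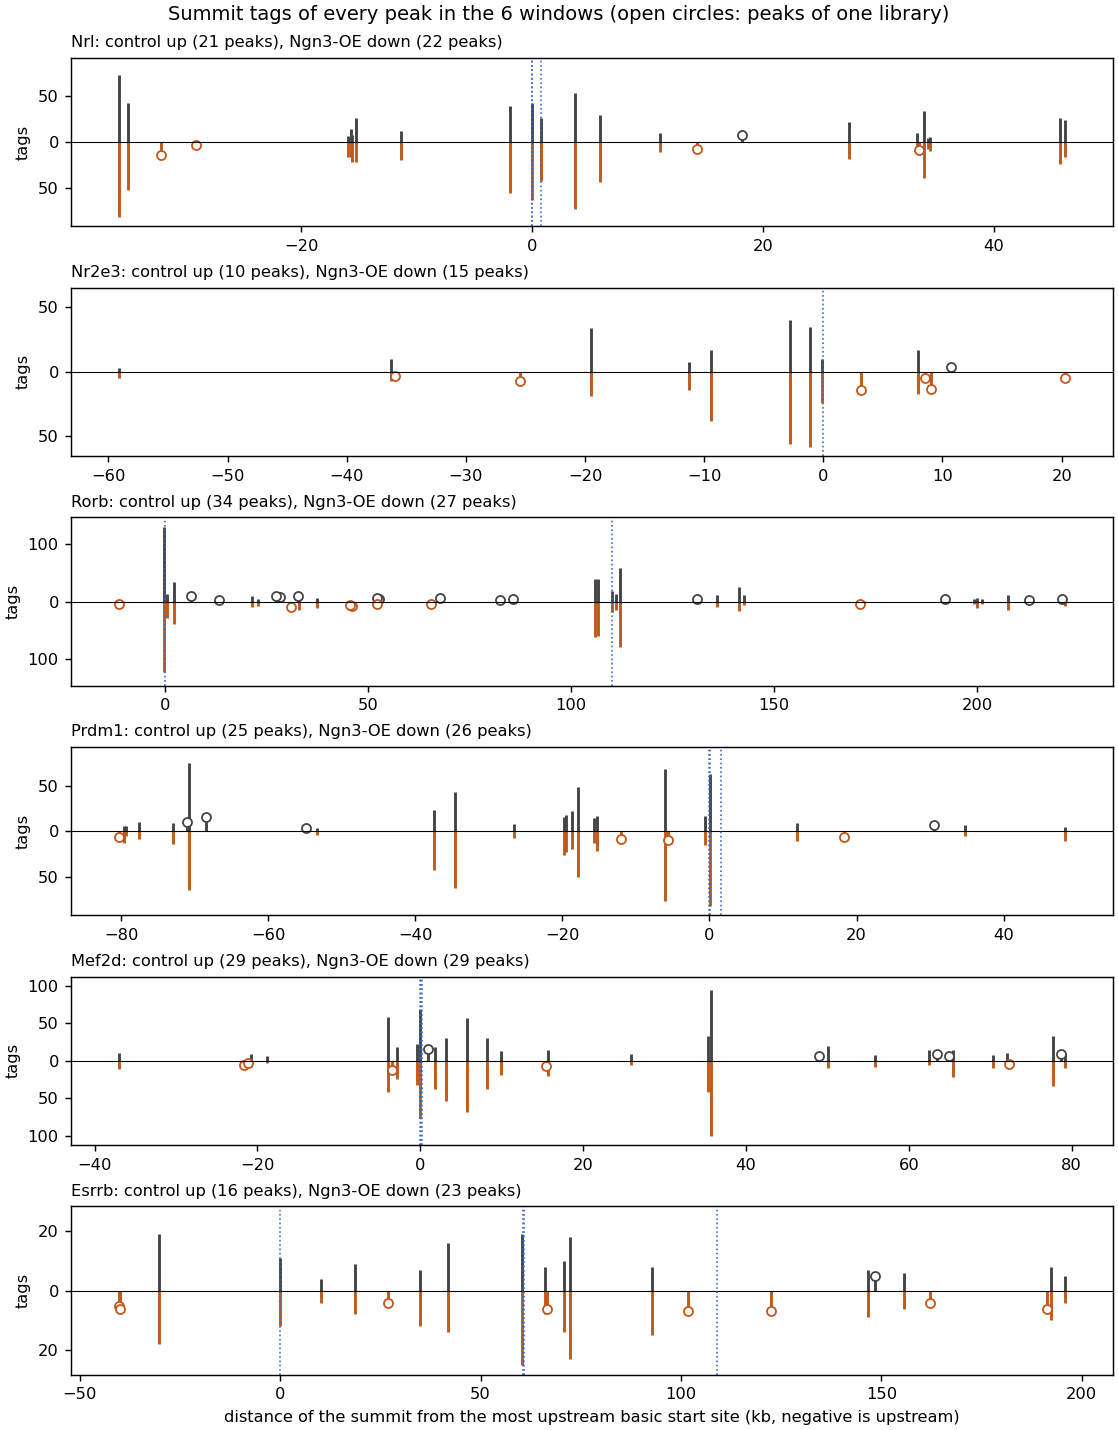
Tags at the summit of each peak in the windows of the 6 genes, upward for control and downward for Ngn3-OE, against the distance in kb from the most upstream start site of the basic annotation (dotted lines mark all start sites, open circles one-library peaks, and each panel has its own tag axis). Tall peaks stand in both libraries at the same places, and open circles stay at or below 16 tags.

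The height of shared peaks was compared next. The number of tags at each summit was recovered from the deposited values, and the Ngn3-OE to control ratio was divided by 0.983, the ratio of the lowest backgrounds of the 2 libraries, which stands for their depth. Among the 109 shared pairs, 45 had a mean of at least 20 tags. In 35 of these 45 the pileup was higher in Ngn3-OE, against 62.8% of the 26805 such pairs in the genome. The median log2 ratio at the 6 genes was 0.37 (95% interval 0.20 to 0.51, from the order of the values), against 0.12 for all pairs, 0.19 for all pairs over 3 kb from a start site and 0.09 for all pairs within 3 kb of one. A ratio of at least 1.5 was found for 11 pairs (24.4%, against 13.6% of all pairs) and a ratio of at most 0.667 for 1 pair (2.22%, against 6.34%). The interval of the ratio lay above 1 for 8 pairs (17.8%, against 8.07%) and below 1 for 0 pairs (against 3.89%). All pairs together were shifted by 0.12 on the log2 scale; scaled by that median instead, 8 pairs were higher (17.8%, against 9.59% of all) and 3 were lower (6.67%, against 8.67%). By rank within each list, which needs no depth scale, 33 of the 45 pairs stood higher in Ngn3-OE (73.3%, against 57.4% of all pairs), with a median shift of 3.85 percentile points against 0.48 for all pairs, in lists of unequal length. Neighbouring peaks are not independent, so these counts describe the windows and are not repeats of 1 measurement.

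Pairs with higher pileup were found near start sites and away from them: 2 of the 8 pairs within 1 kb of a start site of the 6 genes and 9 of the 37 beyond it. Of the 11, 5 lay in introns, 4 in the part of a gene record outside its basic transcripts, 1 in a coding exon and 1 in an exon outside the coding sequence, and none of the 19 pairs in the upstream or downstream flanks was among them. Over all pairs, the share with such a ratio was 9.01% within 3 kb of a start site and 20.2% over 3 kb from one. Shares by intron, exon or flank were not computed for all pairs. Without the 11 pairs that stood within 3 kb of a start site of another gene, the median was 0.39 over 34 pairs, of which 9 were higher and 1 was lower. For those 11 pairs at other start sites the median was 0.22. The median was 0.63 at Nr2e3 (4 pairs), 0.49 at Rorb (7 pairs), 0.40 at Esrrb (2 pairs), 0.38 at Prdm1 (9 pairs), 0.34 at Mef2d (11 pairs) and 0.26 at Nrl (12 pairs). Without pairs at start sites of other genes it was 0.55 at Nrl (6 pairs) and 0.36 at Mef2d (9 pairs), and 1 pair was left at Nr2e3, with −0.82, so the order changed. These medians rest on few pairs and their order was not tested.

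**Figure D2:**
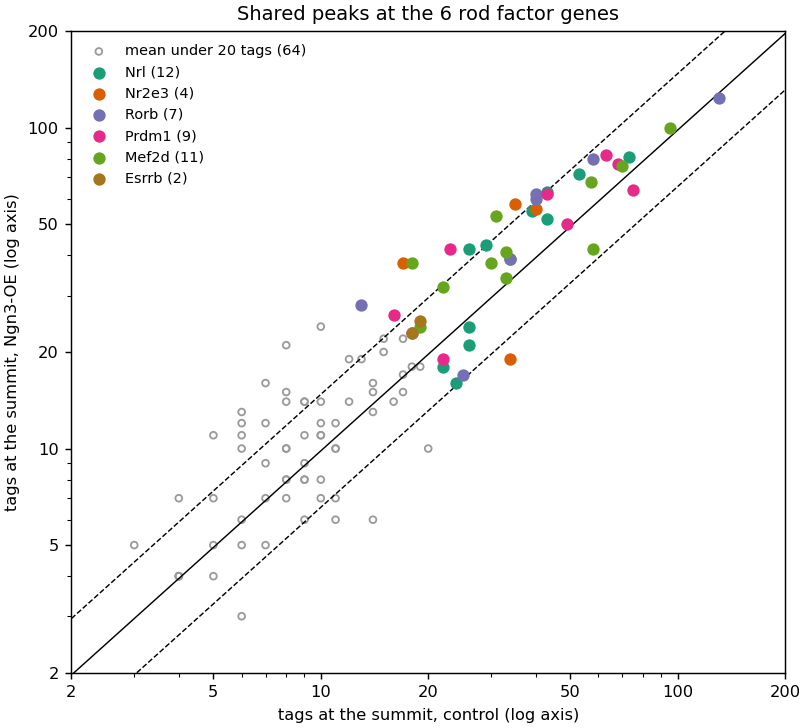
Tags at the summit in control (x, log axis) and Ngn3-OE (y, log axis) for the 109 shared peaks of the 6 genes, coloured by gene where the mean was at least 20 tags and in grey otherwise. The solid line is equal pileup after the depth scale, the dashed lines are 1.5 times above and below it, and more coloured points stand above the solid line (35) than below it (10).

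**Figure D3:**
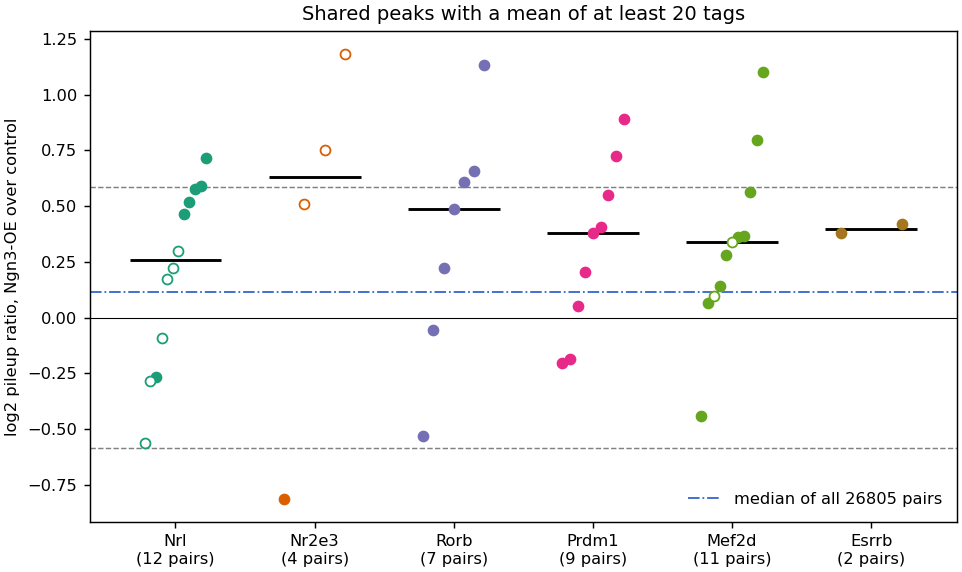
The log2 pileup ratio of Ngn3-OE over control for each of the 45 pairs with a mean of at least 20 tags, by gene. Open circles are pairs within 3 kb of a start site of another gene, bars are medians by gene, dashed lines mark a ratio of 1.5 in either direction, and the dash-dotted line is the median of all 26805 pairs. All 6 medians by gene stand above that line, but at Nr2e3 this rests on the 3 open circles, and its single filled point, at −0.82, is the lowest of all.

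In the accounts that follow, the strongest peak is the one with the highest −log10 q in its library, which need not have the most tags, and a distal peak lies over 3 kb from every annotated start site. Rorb, the earliest of these factors, lies on the minus strand of chromosome 19 from 18930605 to 19111196 (ENSMUSG00000036192.15). Its upstream start site had the tallest peak of all 6 windows, with 131 tags in control and 124 in Ngn3-OE, a ratio of 0.96 (0.75 to 1.24). The internal start site, 110.079 kb further in, had 18 tags in both libraries, and a peak 0.946 kb past it had 14 in control and 15 in Ngn3-OE. Other peaks inside the gene differed in how far the 2 libraries stood apart. An intron peak 2.437 kb past the upstream start site had 34 tags in control and 39 in Ngn3-OE (1.17, 0.72 to 1.90). A peak over a coding exon, 0.643 kb past the upstream start site, had 13 tags in control and 28 in Ngn3-OE, a ratio of 2.19 (1.10 to 4.61). The E-box windows printed above for Rorb lay 3.325 and 4.196 kb upstream of the internal start site, in an intron. They had 40 tags each in control and 60 and 62 in Ngn3-OE, with ratios of 1.53 (1.01 to 2.34) and 1.58 (1.04 to 2.41), and the second was the strongest distal peak of the window in both libraries. On the other side of the internal start site, 1.952 kb past it, a peak had 58 tags in control and 80 in Ngn3-OE (log2 ratio 0.49, with an interval that reached below equal pileup). A further intron peak 31.399 kb past it, which also held CATCTG, had 25 and 17 tags, a ratio of 0.69 (0.35 to 1.33), and stood on the other side of equal pileup from the E-box windows printed above. The control-only peak of highest −log10 q at Rorb had 10 tags (8.07), and the Ngn3-OE-only peak of highest −log10 q had 9 (6.12).

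Prdm1 lies on the minus strand of chromosome 10 from 44437177 to 44528501 (ENSMUSG00000038151.13), and its gene record runs far upstream of the start sites in the basic annotation. The peak at the outermost start site had 63 tags in control and 82 in Ngn3-OE, a ratio of 1.32 (0.94 to 1.87). A smaller peak 0.665 kb upstream of it had 17 and 15 tags. The upstream region held a row of open sites in both libraries. The site 6.001 kb upstream had 68 and 77 tags (1.15, 0.82 to 1.62), and was the strongest distal peak in Ngn3-OE. The site 70.772 kb upstream had 75 and 64 tags (0.87, 0.61 to 1.23), and was the strongest distal peak in control. Between them, the site at 37.493 kb whose sequence is printed above had 23 tags in control and 42 in Ngn3-OE, a ratio of 1.86 (1.09 to 3.23). The site at 19.75 kb, which held GGATTA, the core bound by Crx and Otx2, had 16 and 26 tags (1.65, 0.85 to 3.30), and the site at 34.587 kb had 43 and 62 (1.47, 0.98 to 2.22). Next to these, the site at 17.923 kb had 49 and 50 tags. Among the sites named along this stretch, those at 19.75, 34.587 and 37.493 kb had the highest ratios and stood side by side. Those at 6.001 and 17.923 kb, nearer the start site, and at 70.772 kb, farther out, stood closer to equal pileup. The interval lay above 1 for 1 of the sites. The strongest one-library peak of control among all 6 windows lay here, 68.537 kb upstream, with 16 tags and a −log10 q of 9.44. The strongest Ngn3-OE-only peak of the window, 11.995 kb upstream, had 9 tags (4.26) and held both CATCTG and GGATTA, and another had 10 (2.02).

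Nrl lies on the minus strand of chromosome 14 from 55518978 to 55524981 (ENSMUSG00000040632.16), among 6 other protein-coding genes within the window. All 5 pairs of at least 20 tags in the gene or within 2 kb upstream of it were higher in Ngn3-OE. The peak at the outer start sites had 43 tags in control and 63 in Ngn3-OE, a ratio of 1.49 (0.995 to 2.25). The peak at the internal start site, whose E-box is printed above, held CATCTG and the PRDM1-type core AGTGAAA and had 26 and 42 tags (1.64, 0.98 to 2.79). The upstream peak, at 1.884 kb, had 39 and 55 tags (1.43, 0.93 to 2.22). The intron peak 2.952 kb past the internal start site, with a GGATTA match, had 53 and 72 tags (1.38, 0.96 to 2.01), and the peak in the last exon, outside the coding sequence, had 29 and 43 (1.51, 0.92 to 2.50) and was the strongest distal peak in Ngn3-OE. No single interval of these 5 excluded 1. Among pairs of at least 20 tags, those at start sites of neighbouring genes in the same window had lower ratios than these 5. Both peaks at Dcaf11 had 1.23 and 1.13 times the control pileup, that at Carmil3 1.17 times, those at Dhrs4 0.94 and 0.68 times, and that at Pck2 0.82 times. Among weaker pairs, with a mean under 20 tags, ratios were 1.69 (0.56 to 5.67), 1.42 and 1.22 at Carmil3. They were 1.61 (0.74 to 3.64) at Gm49117, 1.16 at Pck2 and 1.12 at Cpne6. At Pck2, 2 weaker control peaks overlap an Ngn3-OE peak that is already paired with another control peak, so their ratios are not given. The strongest distal peak of the window in control lay 26.673 kb past the nearest Nrl start site, downstream of the gene, with 22 tags against 18 in Ngn3-OE; it ranked above the last-exon peak by −log10 q and not by tags. The control-only peak had 8 tags (−log10 q 5.87), and the strongest of the 4 Ngn3-OE-only peaks had 8 tags (3.25), while another had 14 (2.17).

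Nr2e3 lies on the minus strand of chromosome 9 from 59942771 to 59960659 (ENSMUSG00000032292.8), with a single start site in the basic annotation at 59950117. Its start-site peak was weak, with 10 tags in control and 24 in Ngn3-OE, a ratio of 2.44 (1.12 to 5.72) that fell under the minimum mean of 20 tags. The pair 1.085 kb upstream had 35 tags in control and 58 in Ngn3-OE (1.69, 1.09 to 2.64), and the pair 2.77 kb upstream had 40 and 56 (1.42, 0.93 to 2.19). The pair 9.392 kb upstream had 17 and 38 tags, with a ratio of 2.27 (1.25 to 4.29), the largest of the 45. All 3 lie within 3 kb of a start site of Gm7616 or Gm15507, noncoding genes that overlap the Nr2e3 record, and cannot be assigned to one of the overlapping genes by position. The next pair, 19.466 kb upstream, went the other way and lies in an exon of the neighbouring gene Thsd4 outside its coding sequence, with 34 tags in control and 19 in Ngn3-OE (0.57, 0.31 to 1.02). It was the strongest distal peak of the window in both libraries and the single pair of the 45 at or under 0.667. The Ngn3-OE-only peak of highest −log10 q of all 6 windows lay downstream of the gene, 9.02 kb past the start site and within 0.02 kb of a start site of Gm20275, with 13 tags (9.85), and a further Ngn3-OE-only peak in an Nr2e3 intron had 14 tags (5.16). The control-only peak of the window had 4 tags (1.49).

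Mef2d occupies positions 88142372 to 88172086 of chromosome 3, on the plus strand (ENSMUSG00000001419.17). The peak at its clustered start sites had 70 tags in control and 76 in Ngn3-OE, a ratio of 1.10 (0.79 to 1.55), and a peak 0.434 kb upstream had 22 and 32 (1.48, 0.83 to 2.67). The higher pairs lay in the intron that follows. At 1.616 kb past the start site 18 tags stood against 38 (2.15, 1.20 to 4.00), and at 3.026 kb, in the window printed above, 31 stood against 53 (1.74, 1.10 to 2.80). Further in, the peak at 5.521 kb, the strongest distal peak in Ngn3-OE, had 57 and 68 tags (1.21, 0.84 to 1.76). On the upstream side the strongest distal peak in control, at 3.948 kb, had 58 tags in control and 42 in Ngn3-OE (0.74, 0.48 to 1.11). The control-only peak of highest −log10 q had 9 tags (5.40) and that of Ngn3-OE 6 tags (4.82). A control-only peak 0.714 kb past a start site had 16 tags (2.54), and an Ngn3-OE-only peak 3.459 kb upstream had 12.

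Esrrb occupies positions 86361117 to 86521628 of chromosome 12, on the plus strand (ENSMUSG00000021255.17) and had the fewest open regions for its length, with 6.14 peaks per 100 kb of window in control and 8.83 in Ngn3-OE. Mef2d, by comparison, had 22.4 per 100 kb in both. Peaks at Esrrb were also low. The peak at the first start site had 11 tags in control and 12 in Ngn3-OE, and the peak at the second start-site cluster, 60.527 kb further in, had 19 and 25, a ratio of 1.34 (0.71 to 2.57). The last start site, 109 kb in, had no peak within 1 kb in either library. An intron peak 11.601 kb past the second cluster had 18 and 23 tags (log2 ratio 0.38), and was the strongest distal peak in Ngn3-OE, while that of control, 30.302 kb upstream of the first start site, had 19 and 18. Both control and Ngn3-OE heights at Esrrb were thus within counting error of each other at every pair named here. The 8 Ngn3-OE-only peaks had 4 to 7 tags, and the strongest 2, in introns, had 7 tags each (−log10 q 6.88). The control-only peak had 5 tags (4.04).

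Start-site peaks of the 6 genes can be set beside each other by their tags, as heights at single summits and not as levels of the genes. In control the order from the highest was Rorb with 131, Mef2d with 70, Prdm1 with 63, Nrl with 43, Esrrb with 19 and Nr2e3 with 10. In Ngn3-OE it was Rorb with 124, Prdm1 with 82, Mef2d with 76, Nrl with 63, Esrrb with 25 and Nr2e3 with 24. The exact Poisson intervals of Mef2d, Prdm1 and Nrl overlap with each other in both libraries, as do those of Esrrb and Nr2e3, so the order within these sets was not resolved.

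Short motifs known for the factors and factor families named here were counted within 100 bp of each summit on both strands. GGATTA, bound by Crx and Otx2, was present at 22.2% of the control peaks of the 6 genes (30 of 135, 16.0 to 29.9) and at 13.9% of all control peaks, and at 22.5% of the Ngn3-OE peaks (32 of 142, 16.4 to 30.1) against 16.5% of all. AGTGAAA, a core bound by Prdm1, was present at 7.41% (10 of 135, 4.07 to 13.1) against 2.85%, and at 5.63% (8 of 142, 2.88 to 10.7) against 2.66%. The E-box core CATCTG was present at 20% against 21.3% in control and at 17.6% (12.2 to 24.7) against 22.6% in Ngn3-OE. Within 250 bp of the summit the control share was above that of all peaks (40% against 36.9%). The longer form of the E-box, which contains CATCTG, was present at 4 control peaks (2.96%, against 3.65% of all) and 3 Ngn3-OE peaks (2.11%, against 4.27%). The SOX-type CCATTGT or CCTTTGT was present at 9.63% against 8.80% in control and 9.86% against 7.41% in Ngn3-OE. For the nuclear receptor half-site AGGTCA the shares were 11.9% against 12.8% and 11.3% against 13.2%, for the NRL half-site TGCTGA 15.6% against 17.7% and 15.5% against 17.9%, and the MEF2 site was present at 4 peaks of each library (2.96% against 1.83% in control and 2.82% against 1.86% in Ngn3-OE).

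Within the 45 pairs, CATCTG was present at 5 of the 11 with a ratio of at least 1.5, at 2 of the 33 in between and at 0 of the 1 lower pair. In the genome it was present at 26.9% of the 3643 higher pairs, 18.4% of the 1700 lower pairs and 17.0% of all 26805. These 5 are the E-box sequences printed above, 2 each at Nrl and Rorb and 1 at Mef2d. The largest ratios, at Nr2e3, Rorb and Mef2d with 2.27, 2.19 and 2.15, had no CATCTG within 100 bp. For GGATTA the counts were 1 of 11 and 5 of 33, although it stood at 30.6% of the higher pairs of the genome. A match is a short run of letters and says nothing of whether a factor was bound.

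The start-site peaks of 12 other genes of the photoreceptor network were counted in the same way. These are the regulatory genes Otx2, Crx, Neurod1, Rax, Casz1, Samd7, Samd11 and Ankrd33, the cone genes Thrb and Rxrg, and the phototransduction genes Gnat1 and Pde6b. All but Gnat1 had a start-site peak in both libraries. The interval of the ratio lay above 1 for 5 of these 11, against 2.46% of all protein-coding genes with a start-site peak in both libraries, and for 1 of the 6 rod factor genes, Nr2e3. These were Crx, with 88 tags in control and 118 in Ngn3-OE (1.36, 1.03 to 1.82), Samd7 with 45 and 69 (1.56, 1.06 to 2.32), Samd11 with 59 and 88 (1.52, 1.08 to 2.15), Ankrd33 with 21 and 48 (2.32, 1.37 to 4.09) and Rxrg with 43 and 67 (1.58, 1.06 to 2.38). Crx is the homeodomain factor of photoreceptors, Samd7 and Samd11 belong to a repressor complex of rods, Ankrd33 is a corepressor of Crx targets, and Rxrg is a nuclear receptor of cones. The share of 2.46% counts start-site peaks of any height. Among all pairs with a mean of at least 20 tags within 3 kb of a start site, the interval lay above 1 for 6.01%. The list of genes was chosen with earlier results of these data known, so its share is not read as an excess. The proneural factor Neurod1 had 95 tags in both libraries. Pde6b, a subunit of the rod phosphodiesterase, had 6 and 7. In the windows of these 12 genes, 21 of 97 pairs were at least 1.5 times higher (21.6%, against 13.6% of all pairs) and 4 at most 0.667 (4.12%, against 6.34%), with a median log2 ratio of 0.25 (0.17 to 0.38). The median at the 6 rod factor genes, 0.37, lies within that interval, and the difference between the 2 sets was not tested.

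**Figure D4:**
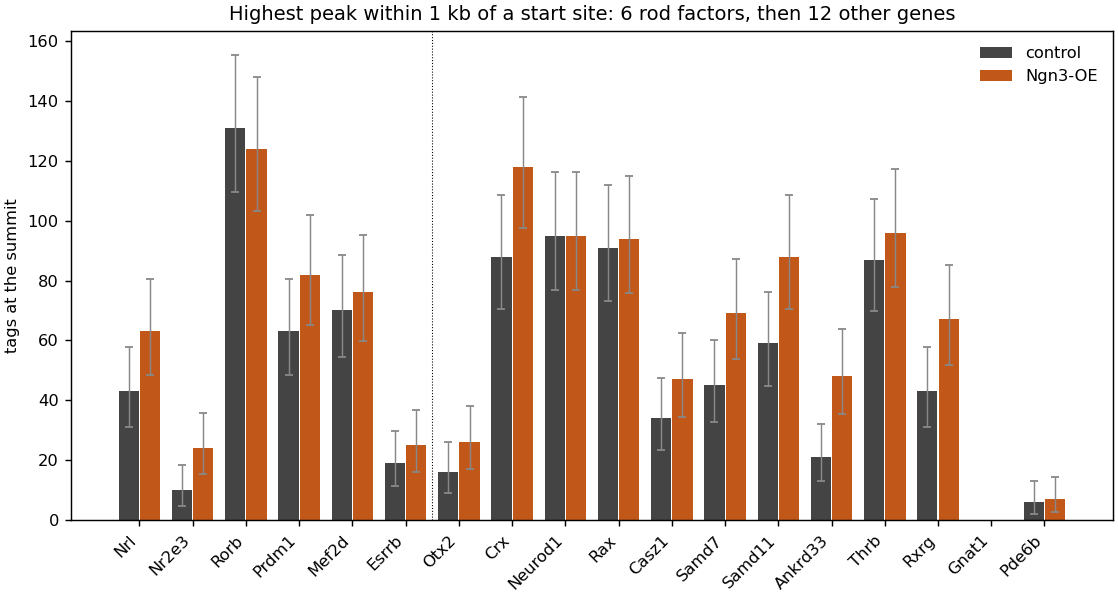
Tags at the summit of the highest peak within 1 kb of a start site in control and Ngn3-OE, for the 6 rod factor genes (left of the dotted line) and 12 other genes of the network (right of it). Bars start at 0 and error lines are exact 95% Poisson intervals of the count, which cover counting error only. Gnat1 has no bar because no peak was called there.

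The labelled cell type was checked by start-site peaks of marker genes. All 7 progenitor genes reported here (Pax6, Sox2, Rax, Hes1, Notch1, Six3 and Lhx2) had peaks in both libraries, with 564 tags in control and 529 in Ngn3-OE in sum. The sum was lower in Ngn3-OE at Hes1 (93 tags in 2 peaks and 45 in 1), Notch1 (50 and 31), Six3 (74 and 57), Pax6 (85 and 76) and Lhx2 (84 and 83), and higher at Sox2 (58 in 2 peaks and 91 in 5) and Rax (120 and 146). These sums follow the number of peaks called. By the start-site peak of highest −log10 q, Sox2 was lower in Ngn3-OE (44 and 42) and only Rax was higher (91 and 94). Pax6 had 39 and 29 tags at that peak, Hes1 53 and 45, Notch1 50 and 31, Six3 39 and 31, and Lhx2 72 and 61. Of 4 markers each, microglia had peaks at 1 (P2ry12, 8 and 7 tags) and the retinal pigment epithelium at 0 in both libraries. The endothelium had peaks at 2 markers in control (47 tags) and at 1 in Ngn3-OE (37 tags), mostly from Kdr. The summed tags of these markers of other cell types were lower in Ngn3-OE than in control or 0 in both, and the part of these cells in the results was not tested. A sorted library averages over its cells, so a change in the share of cells with an open site and a change within each cell cannot be told apart here.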

How the data were processed

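ATAC-seq was analysed from 1 control and 1 Ngn3-OE library of late RPCs, grouped by the sample titles. Per the labels and the study's methods, the authors trimmed reads (Trimmomatic), aligned them to mm10 (Bowtie2), removed duplicates (Picard), mitochondrial reads (SAMtools) and blacklisted regions (bedtools), kept fragments of up to 120 bp, shifted reads by 4 bp forward and 5 bp back (deepTools) and called peaks in each library with MACS2 at a q-value of 0.05. Long nucleosomal fragments are therefore not in the lists. The deposited lists give an integer score, the fold enrichment at the summit, a ratio of pileup to local background, and the −log10 of the p-value and the q-value. The authors' lists of differential regions were not used here.

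Lines with equal intervals on 21 chromosomes were merged (128853 control and 136761 Ngn3-OE lines). Tags at the summit were solved from fold enrichment and −log10 p, which gave whole numbers for 100% of peaks within a tolerance of 0.005, and the step was tested on simulated data. The median was 9 tags in both lists. Peaks were shared with an overlap of at least 1 bp. Ratios of tags carry exact 95% Clopper-Pearson intervals, and shares of peaks Wilson intervals, which treat peaks as independent. Genes and start sites came from GENCODE M21 basic, and sequence from GRCm38. "Gene record" means the whole gene entry, which can run past its basic transcripts. Analyses used Python 3.11.15 with pandas 2.3.3, numpy 2.4.6, scipy 1.17.1 and matplotlib 3.10.9.

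The members and lists were chosen with earlier results of these data known. Some genes of the network and marker lists are not reported here. Peaks were named by rule: those within 1 kb of each start site, the strongest over 3 kb from every start site, the strongest one-library peaks, and shared pairs past 1.5 with a mean of at least 20 tags. A few others, near these, were named after their values were seen. Alternatives covered the window, the overlap, the q-value, the list length, the scaling, the tag minimum and the motif window, and leaving out each gene in turn was added after seeing the data.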

Additional observations from a re-analysis of the deposited data

How the results depend on the processing

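No paired analysis was possible because each group has 1 library. Over 19 results and 112 recounts, 72 kept within the margin set for them (1.5 times for a count, the 95% interval for a share or a median) and no median log2 ratio changed sign. The one-library counts followed the window and the strictness of the lists. They were 15 control-only and 15 Ngn3-OE-only peaks in the gene bodies alone, where the percentage shared was no longer higher in control (78.3% of control and 78.6% of Ngn3-OE peaks, against 80.7% and 76.1%), and 20 Ngn3-OE-only peaks with a flank of 10 kb. With a limit of 5 on −log10 q they were 7 and 9 where it was asked of the queried list and 16 and 18 where it was asked of both, and in the top 50000 peaks of each list they were 8 and 16. The percentage shared was 92.6% of control and 90.8% of Ngn3-OE peaks with the limit of 5 on the queried list, and 71.9% and 68.3% when the overlap had to cover 50% of both peaks.

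The higher pairs numbered 19 with a mean of at least 10 tags (25%, against 18.8% of all), 27 with no minimum (24.8%, against 20.6%) and 3 at a ratio of at least 2 (6.67%, against 3.43%), so the distance from all pairs narrowed without the tag minimum. With no minimum, 2 Ngn3-OE peaks at Pck2 enter 2 pairs each. The lower pairs, 1 in the main count, were 0 in the gene bodies, 2 with a flank of 100 kb, 3 with a mean of at least 10 tags (3.95%, against 10.2% of all), 6 with no minimum (5.5%, against 11.4%), 0 at a ratio of at least 2 and, in an alternative chosen after seeing the data, 0 without the Nr2e3 locus. Scaling by the median ratio of all shared pairs, which lowers each log2 ratio by 0.12, left 8 higher pairs (17.8%, against 9.59% of all) and 3 lower pairs (6.67%, against 8.67%), with a median log2 ratio of 0.25. Under each setting tried for it (the window, the scaling, the tag minimum, the summit distance and leaving out a gene) the median log2 ratio at the 6 genes stayed above that of all pairs. Motif shares grew with the window, as more sequence was searched: CATCTG was at 10.6% of the Ngn3-OE peaks within 50 bp of the summit and at 36.6% within 250 bp, against 14.4% and 38.2% of all. Against all peaks, 3 of the 11 motif shares recomputed changed side: control CATCTG was above within 250 bp (40%, against 36.9%), and control SOX-type matches (4.44%, against 4.85%) and Ngn3-OE MEF2 sites (0.70%, against 0.78%) were below within 50 bp. A usual one-library peak rested on 6 tags, and the tags at the same place in the other library are not in its list, so how far such a place differs between the libraries was not measured.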
